A study of Arabidopsis thaliana with 27 samples.

Results

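The IRON MAN genes IMA1 (AT1G47400), IMA2 (AT1G47395) and IMA3 (AT2G30766) of Arabidopsis thaliana were followed in shoots that lacked iron, with full or low phosphate. They were taken by locus identifier as 3 of the 33602 genes in the deposited expression table, and all 3 were among the 18910 genes that passed the filter on low values, which asked for 1 TPM or more in the average of all samples. TPM counts the reads of a gene per unit of its length, as a part of a fixed total of transcripts in each sample. Wild-type Col-0 seedlings were raised on complete medium and then moved to complete medium (+Fe+P), medium lacking iron (−Fe+P) or iron-free medium with low phosphate (−Fe−P). Transfer preceded the harvest of shoots by 39, 52 or 76 h, with 3 samples in each of the 9 groups and 27 in all. No group was low in phosphate alone, so the effect of phosphate could be read only under iron lack, and time after transfer cannot be told apart from plant age or from the hour of harvest.

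The samples are shoots of 1 accession, in which fewer cells of a type and less RNA per cell cannot be told apart. The sources call the replicates biological and do not say whether they came from separate plates, and the p-values rest on the spread among these samples alone. Depth recovered from the TPM values was 25.6 to 56.5 M reads, with a median of 44.2 M. The 3 leaf markers RBCS1A, RCA and LHCB1.3 summed to between 33166 and 48571 TPM in every sample, whereas the root hair markers EXPA7 and COBL9 and the endodermal markers CASP1 and MYB36 reached at most 5.16 TPM. PYK10, the other gene of the root list, stood at 352 to 638 TPM. Replicate 1 of −Fe−P at 39 h stood apart from its group. It had 671 genes at least 2-fold from the mean of its mates on the log2 scale, against at most 229 in any other library. Its 3 seed storage transcripts summed to 45.4 TPM, against at most 0.498 in the other samples, its 3 phloem companion cell markers to 118.7 TPM, against 255.1 and 256.4 in its mates, and its 3 xylem markers to 12.5 TPM, against 66.7 and 73.4. Their part in the 39 h results was not tested, and values without this library are given below.

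IRON MAN peptides are short plant peptides with an acidic end that is shared across the family. In Arabidopsis they bind BRUTUS (BTS), an iron-binding ubiquitin ligase that marks group IVc basic helix-loop-helix (bHLH) transcription factors for degradation, and so they protect those factors. The IVc factors, together with bHLH121, switch on the group Ib bHLH genes, PYE, BTS and the IMA genes themselves. The peptides are known as part of the signal by which the iron state of the shoot is conveyed, and the genes are known to be expressed in the phloem.

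The coding sequences are shown because the near identity of IMA1 and IMA2 bears on how reads are shared between them. They were read from the RefSeq annotation of TAIR10.1, all 3 on the + strand and each within 1 exon. The capitals mark, in IMA1 and IMA2, the last 55 bases, over which those genes were identical, and, in IMA3, the bases that matched this stretch when the 3′ ends were aligned without gaps.
IMA1 (chr1:17385818-17385970): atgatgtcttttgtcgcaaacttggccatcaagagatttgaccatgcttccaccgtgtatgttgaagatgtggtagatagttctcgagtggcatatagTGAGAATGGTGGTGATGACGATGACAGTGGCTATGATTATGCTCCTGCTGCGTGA
IMA2 (chr1:17383117-17383269): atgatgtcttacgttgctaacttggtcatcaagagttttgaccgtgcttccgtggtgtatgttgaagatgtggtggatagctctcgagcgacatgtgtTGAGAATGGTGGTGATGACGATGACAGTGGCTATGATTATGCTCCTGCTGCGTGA
IMA3 (chr2:13108068-13108211): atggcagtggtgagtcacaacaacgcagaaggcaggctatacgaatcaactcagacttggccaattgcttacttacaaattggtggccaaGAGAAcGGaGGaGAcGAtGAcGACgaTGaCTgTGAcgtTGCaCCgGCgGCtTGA

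IMA1 and IMA2 matched at 136 of 153 coding bases (88.9%), and the 17 differences all lay before the shared end. IMA3, with a coding length of 144 bases, matched 37 of those last 55 bases (67.3%) and 22 of the 89 bases before them in the same ungapped alignment. IMA2 and IMA1 are neighbours on chromosome 1, at 17382998 to 17383830 and 17385707 to 17386485, with 1876 bases between them. IMA3 lies on chromosome 2 at 13107583 to 13110480 and has 2 annotated transcripts that begin at 13107583 and 13107909. Of all stretches of 50 bases in the annotated exons, 10 of 730 in IMA1 and 10 of 784 in IMA2 occurred elsewhere in the genome, each of them in the other gene, whereas none of the 1897 in IMA3 did. Reads from the shared end could therefore be assigned to either gene or dropped, but most of each transcript was unique at that length. Read length and the treatment of reads with several matches are not given in the sources used here.

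The 250 bases before the annotated starts of IMA1 and IMA2 are shown because both genes were called in the same comparisons of media, as given below. The capitals mark CANNTG, the E-box, which reads the same on both strands.
IMA1 (chr1:17385457-17385706): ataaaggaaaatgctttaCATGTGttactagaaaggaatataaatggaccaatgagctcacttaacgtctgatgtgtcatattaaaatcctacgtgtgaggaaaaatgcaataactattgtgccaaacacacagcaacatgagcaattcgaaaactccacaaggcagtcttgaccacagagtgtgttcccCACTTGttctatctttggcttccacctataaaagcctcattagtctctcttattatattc
IMA2 (chr1:17382748-17382997): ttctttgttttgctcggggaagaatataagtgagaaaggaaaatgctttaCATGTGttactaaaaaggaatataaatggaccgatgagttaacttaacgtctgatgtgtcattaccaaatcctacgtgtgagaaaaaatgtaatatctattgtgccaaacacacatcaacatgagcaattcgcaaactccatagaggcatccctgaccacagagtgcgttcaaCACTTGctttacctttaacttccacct

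The first E-box lay 232 bases before the start in IMA1 and 200 in IMA2, and the second 60 and 27 bases before it. The longest run that both windows shared was 28 bases. CANNTG occurred in 55.3% of the 27443 windows of this length before protein-coding genes, so its presence does not set these genes apart. The G-box CACGTG, a form of CANNTG found in 6.5% of all windows, was in neither window. IMA3 had 1 match to CACGTG, 64 bases before its second annotated start and inside the first exon of the longer transcript, and the 30 bases around it are shown with the match in capitals.
IMA3 (chr2:13107833-13107862): cactgagaacttCACGTGagaataaatatt

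The window before the first start of IMA3 held CANNTG at 107 and 48 bases and no CACGTG. GNATATNC, which was found in 5.5% of all windows, was in none of the windows of the 3 genes. A match is a description of the letters and not evidence of binding.

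**Figure D1:**
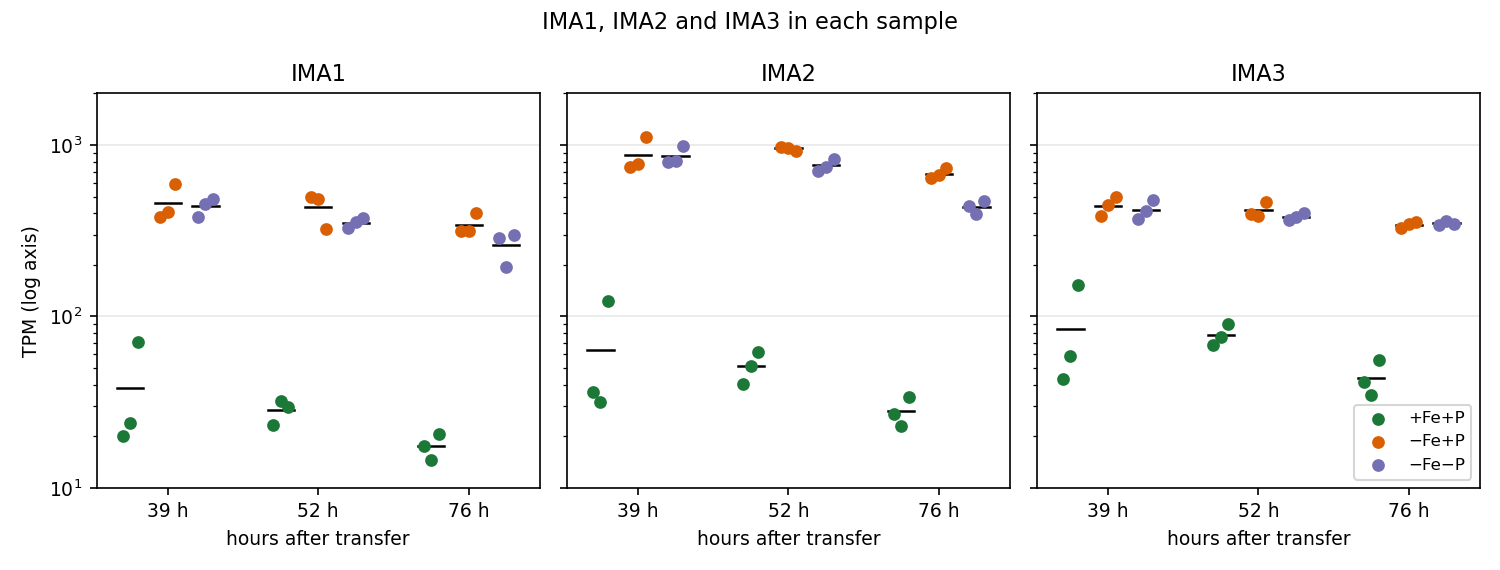
TPM of IMA1, IMA2 and IMA3 on a log axis in each of the 27 samples, by hours after transfer and medium. Points are samples, ordered by replicate number within a group, and bars are group means. Every sample that lacked iron lay above every +Fe+P sample of its own time.

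IMA1 and IMA2 rose more than 10-fold and IMA3 about 5-fold to 8-fold in shoots without iron, at every time and at either phosphate level. IMA1 stood at 20.2, 24.0 and 71.0 TPM in the 3 replicates of +Fe+P at 39 h, at 381, 405 and 590 TPM in −Fe+P and at 381, 451 and 484 TPM in −Fe−P. At 52 h IMA1 was 23.2, 32.2 and 29.7 TPM with complete medium, 495, 485 and 326 TPM in −Fe+P and 327, 357 and 376 TPM in −Fe−P. By 76 h the IMA1 levels were 17.5, 14.5 and 20.7 TPM for +Fe+P plants, 317, 316 and 399 TPM in −Fe+P and 287, 195 and 299 TPM in −Fe−P. Every sample without iron exceeded every +Fe+P sample of its time, and the lowest of them was at least 5.36 times the highest +Fe+P value. In −Fe−P at 76 h all 3 samples were below all 3 of −Fe+P, whereas at 39 and 52 h those groups overlapped.

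IMA2 had 36.0, 31.8 and 122 TPM in +Fe+P at 39 h, 747, 773 and 1111 TPM in −Fe+P and 796, 808 and 993 TPM in −Fe−P. Its values at 52 h were 40.5, 51.5 and 62.1 TPM with complete medium, 977, 968 and 923 TPM in −Fe+P and 708, 750 and 825 TPM in −Fe−P. The 76 h samples held 26.9, 23.1 and 33.9 TPM of IMA2 for +Fe+P plants, 642, 665 and 735 TPM in −Fe+P and 439, 397 and 470 TPM in −Fe−P. IMA2 was the highest of the 3 genes in every sample without iron. Its −Fe−P values lay below all −Fe+P values at 52 and 76 h and among them at 39 h.

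IMA3 started from a higher level, with 43.1, 58.9 and 152 TPM in +Fe+P at 39 h, against 385, 446 and 497 TPM in −Fe+P and 373, 410 and 479 TPM in −Fe−P. At 52 h IMA3 was 67.7, 76.3 and 90.8 TPM with complete medium, 397, 387 and 468 TPM in −Fe+P and 366, 383 and 400 TPM in −Fe−P. Its levels at 76 h were 41.3, 34.7 and 56.0 TPM for +Fe+P plants, 329, 344 and 356 TPM in −Fe+P and 343, 361 and 348 TPM in −Fe−P. IMA3 was the highest of the 3 genes in every +Fe+P sample, and its −Fe−P and −Fe+P values overlapped at all 3 times.

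One +Fe+P library, replicate 3 at 39 h, held the highest +Fe+P value of each IMA gene. Of the 20 iron signalling genes described further on, 14 were also highest in that library among the 3 samples of its group. For 8 of them it was by at least 1.5 times, as in BHLH100 with 26.2, 15.6 and 112.1 TPM and BTS with 41.5, 50.4 and 92.8 TPM. Others exceeded the next sample by little, such as bHLH115 (1.0 times), bHLH34 (1.02 times) and FRO2 (1.09 times). The same shares over all genes were not counted, so these counts have no background. The library had 75 genes at least 2-fold from the mean of its mates on the log2 scale, within the range of the others. The sources give no reason for it. The 39 h fold changes of the IMA genes are also given without it, whereas the group means, ratios of means and values of other genes at 39 h include it.

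By median rank among all genes in a sample, ordered from the highest TPM, IMA2 moved from 3958 in +Fe+P to 139 in −Fe+P and 152 in −Fe−P. IMA1 moved from 6011 to 352 and 365, and IMA3 from 2557 to 356 and 327. The recovered reads behind these values were 211 to 1018 for IMA1, 284 to 1400 for IMA2 and 682 to 2774 for IMA3 in the +Fe+P samples, and at least 2776 for any of them without iron.

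The first comparison asked how iron lack alone changed the genes. Genes were called where a limma fit of log2(TPM + 0.5) gave both a change of 2-fold or more and a p under 0.05 after Benjamini-Hochberg adjustment over the 18910 genes. Fold changes of low genes are understated on this scale. All 3 IMA genes were called higher at all 3 times, against a background of 0.555% of all genes called higher at 39 h, 2.78% at 52 h and 4.42% at 76 h. Mean TPM of IMA1 in −Fe+P was 11.9 times that in +Fe+P at 39 h, 15.3 times at 52 h and 19.6 times at 76 h, with fitted log2 fold changes of 3.77, 3.90 and 4.26 (SE 0.30 each, n = 3 against 3) and adjusted p of 6.9e-09, 2.2e-09 and 5.7e-10 in limma. For IMA2 the ratios were 13.8, 18.6 and 24.4, with log2 fold changes of 4.04, 4.23 and 4.60 (SE 0.30) and adjusted p of 2.1e-09, 5.4e-10 and 1.5e-10 in limma. IMA3 changed less, with ratios of 5.24, 5.33 and 7.8, log2 fold changes of 2.59, 2.41 and 2.98 (SE 0.27) and adjusted p of 3.6e-07, 6.6e-07 and 1.8e-08 in limma. Ordered by fold change among all genes tested, IMA2 stood 8th at 39 h, 12th at 52 h and 13th at 76 h, IMA1 10th, 18th and 16th, and IMA3 26th, 94th and 59th. Without replicate 3 of +Fe+P at 39 h, the 39 h log2 fold changes were 4.32 for IMA1, 4.65 for IMA2 and 3.12 for IMA3. The median change over all genes was 0.16 at 52 h and 0.11 at 76 h on the log2 scale, and scaling the samples by the median of ratios took it to −0.01 and to −0.00. With that scaling the 52 h changes of IMA1, IMA2 and IMA3 were 3.73, 4.05 and 2.24.

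In the comparison of the double deficiency with +Fe+P, which uses the same +Fe+P samples, the 3 genes were again called higher at all times, against 1.45%, 4.45% and 6.34% of all genes called higher at the 3 times in turn. The ratios of mean TPM were 11.4, 12.4 and 14.8 for IMA1, with log2 fold changes of 3.72, 3.63 and 3.84 (SE 0.30). For IMA2 they were 13.6, 14.8 and 15.6, with 4.04, 3.89 and 3.95 (SE 0.30). In IMA3 the ratios were 4.98, 4.89 and 7.98, with 2.51, 2.29 and 3.01 (SE 0.27), and the highest adjusted p of the 9 tests was 6.5e-07 in limma. Without replicate 3 of +Fe+P at 39 h the 39 h changes were 4.28 for IMA1, 4.65 for IMA2 and 3.04 for IMA3. Without replicate 1 of −Fe−P at 39 h they were 3.82, 4.09 and 2.60, and without that library and replicate 3 of +Fe+P together they were 4.38, 4.71 and 3.13 for IMA1, IMA2 and IMA3.

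**Figure D2:**
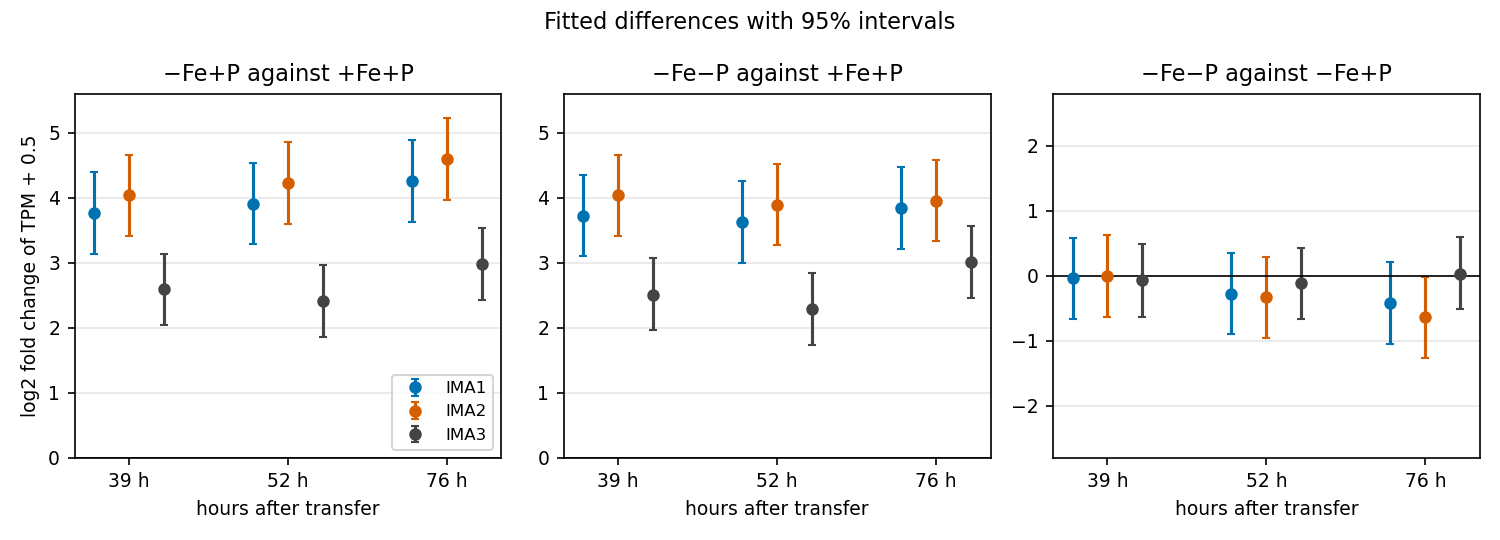
Fitted log2 fold changes of TPM + 0.5 for IMA1, IMA2 and IMA3 at each time in the 3 comparisons of media, with 95% confidence intervals from limma. The third panel has its own axis, centred on 0. Changes without iron lay between 2.29 and 4.60, and differences between −Fe−P and −Fe+P between −0.64 and 0.03.

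Whether phosphate mattered under iron lack was asked by setting −Fe−P against −Fe+P. No IMA gene was called at any time, where 0.820%, 2.21% and 8.86% of all genes were called in either direction at the 3 successive times. At 39 h the differences on the log2 scale were −0.04 for IMA1 (95% confidence interval −0.67 to 0.58), −0.00 for IMA2 (−0.63 to 0.62) and −0.07 for IMA3 (−0.63 to 0.48). Without replicate 1 of −Fe−P at 39 h the 39 h differences were 0.05, 0.05 and 0.01. At 76 h they were −0.42 for IMA1 (95% confidence interval −1.05 to 0.21, adjusted p = 0.259 in limma), −0.64 for IMA2 (−1.27 to −0.02, adjusted p = 0.0786) and 0.03 for IMA3 (−0.52 to 0.59, adjusted p = 0.927). The 76 h intervals of IMA1 and IMA2 leave room for falls beyond 2-fold. In mean TPM, IMA2 in −Fe−P was 0.987 times its level in −Fe+P at 39 h, 0.796 times at 52 h and 0.64 times at 76 h, IMA1 0.956, 0.812 and 0.756 times and IMA3 0.95, 0.917 and 1.02 times. The fit over 27 samples shares 1 estimate of the spread per gene. Fitted on its own 6 samples, the 76 h difference of IMA2 had an adjusted p of 9.3e-04 in limma, over alternatives that ran from that value to 0.177, and it stayed under 2-fold in all of them.

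A test over all 3 times was made for each gene by exact permutation of the media labels within each time, two-sided, with 8000 arrangements and 9 tests in the family, each adjusted over those 9 because no test of this kind was run over all genes. The mean difference of −Fe−P from −Fe+P over the 3 times was −0.33 for IMA2 on the log2 scale, a ratio of 0.798, with an exact p of 0.01 and an adjusted p of 0.0225. IMA1 differed by −0.25 (exact p = 0.0635, adjusted p = 0.0953) and IMA3 by −0.05 (exact p = 0.382, adjusted p = 0.382). Only IMA2 passed, and its adjusted permutation p rose to 0.0641 without replicate 3 of −Fe+P at 39 h. Without replicate 1 of −Fe−P at 39 h the mean differences were −0.21 for IMA1, −0.31 for IMA2 and −0.03 for IMA3. Their adjusted permutation p were then 0.191, 0.0364 and 0.679. The adjusted permutation p of IMA1 fell to 0.0499 without replicate 1 of −Fe+P at 39 h and to 0.0264 without replicate 3 of −Fe+P at 52 h. The phloem companion cell markers SUC2, AHA3 and SULTR2;1 summed to 369 to 445 TPM in −Fe−P at 76 h and to 227 to 248 TPM in −Fe+P, so they were higher where IMA2 was lower, and their part in the difference was not tested.

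The genes kept neither the same order nor the same proportions across media. In +Fe+P, IMA1 made up 19.4% ± 1.55 of the summed TPM of the 3 genes, IMA2 32.3% ± 2.65 and IMA3 48.3% ± 2.97 (SD, n = 9). In −Fe+P the shares were 24.9% ± 2.46, 50.6% ± 1.93 and 24.5% ± 2.42 (SD, n = 9), and in −Fe−P they were 24.6% ± 2.12, 47.5% ± 4.53 and 27.9% ± 4.78 (SD, n = 9). Each SD over 9 samples, here and below, spans the 3 times as well as the replicates. In −Fe−P the share of IMA2 was 50.2% ± 1.59 at 39 h, 50.8% ± 0.624 at 52 h and 41.6% ± 0.503 at 76 h (SD, n = 3). In TPM, IMA3 thus gave the largest share with iron and IMA2 without it. This order rests on the gene lengths behind the TPM values, which are described further on, and could differ with other lengths. The sum itself ranged from 72.2 to 345 TPM in +Fe+P, from 1288 to 2198 TPM in −Fe+P and from 953 to 1955 TPM in −Fe−P.

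**Figure D3:**
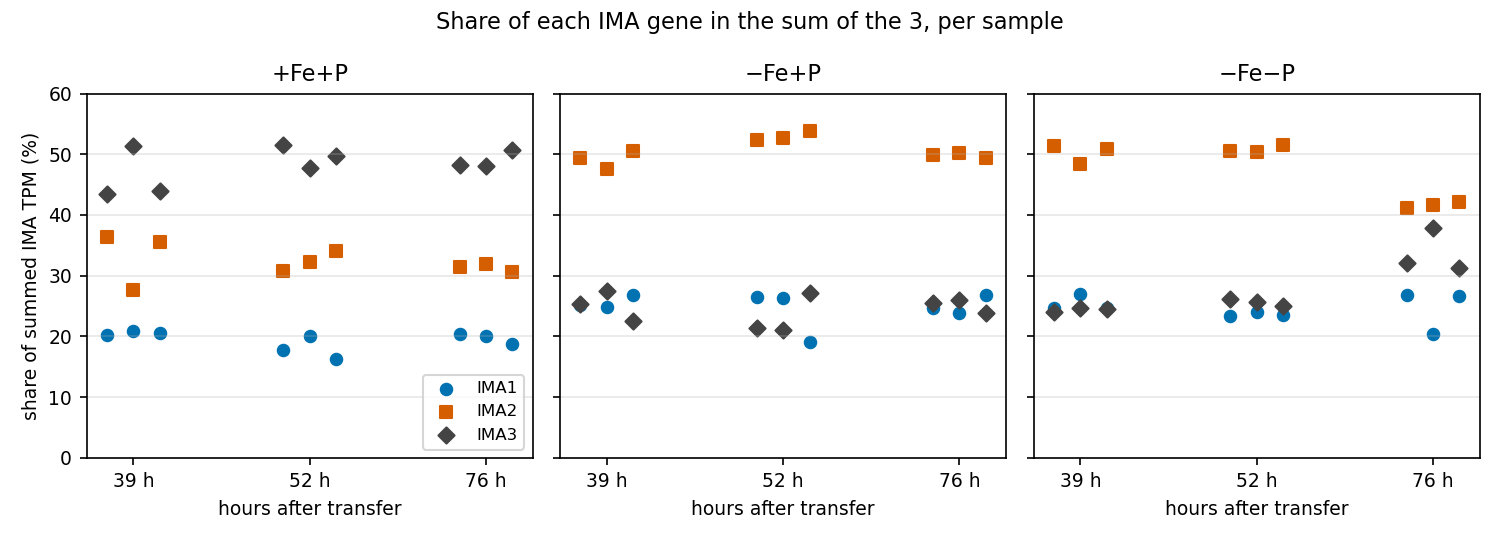
Share of IMA1, IMA2 and IMA3 in the sum of their TPM in each sample, in percent, by medium and hours after transfer. Each column of 3 symbols is a sample, in the order of replicate numbers. IMA3 lies between 43.4% and 51.5% in +Fe+P, and IMA2 between 47.6% and 53.8% in −Fe+P and at 41.1% to 42.1% in −Fe−P at 76 h.

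IMA2 over IMA3 went from 0.673 ± 0.0957 in +Fe+P to 2.09 ± 0.259 in −Fe+P (SD, n = 9), with no overlap. In the same permutation test the log2 ratio changed by 1.63 (exact p = 2.5e-04, the smallest that the arrangements can give, adjusted p = 0.00113). IMA1 over IMA3 went from 0.405 ± 0.0499 to 1.03 ± 0.184 (SD, n = 9), a log2 change of 1.32 with the same exact p of 2.5e-04 and the same adjusted p. The neighbours IMA1 and IMA2 also parted slightly, with IMA2 over IMA1 at 1.67 ± 0.206 in +Fe+P and 2.06 ± 0.3 in −Fe+P (SD, n = 9). The log2 ratio of IMA1 to IMA2 fell by 0.31 (exact p = 7.5e-04, adjusted p = 0.00225), so on average over the 3 times the fold of IMA2 was the larger. Single samples overlapped, with IMA2 over IMA1 at 1.33 to 2.09 in +Fe+P and at 1.84 to 2.83 in −Fe+P.

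Phosphate changed these proportions less. Between −Fe−P and −Fe+P the log2 ratio of IMA2 to IMA3 differed by −0.27 (exact permutation p = 0.0213, adjusted p = 0.0382), by 0.07 at 39 h, −0.21 at 52 h and −0.68 at 76 h. At 76 h IMA2 over IMA3 was 1.93 to 2.07 in −Fe+P and 1.1 to 1.35 in −Fe−P, with no overlap. The call over the 3 times was lost when any 1 of 8 libraries was left out, with adjusted permutation p up to 0.0783: replicate 3 of −Fe+P and replicate 2 of −Fe−P at 39 h, replicates 1 and 2 of −Fe+P at 52 h, and all 3 replicates of −Fe+P and replicate 2 of −Fe−P at 76 h. IMA1 over IMA3 differed by −0.19 (exact permutation p = 0.163, adjusted p = 0.21), with an adjusted permutation p of 0.0199 without replicate 3 of −Fe+P at 52 h, and IMA1 over IMA2 by 0.08 (exact permutation p = 0.32, adjusted p = 0.359).

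The levels of each gene over the 9 groups fell into a high block of the 6 groups without iron and a low block of the 3 +Fe+P groups, with no overlap at the border. For IMA1 the order of the means ran from −Fe+P at 39 h (458 ± 114 TPM, SD, n = 3) through −Fe−P at 39 h (438 ± 52.6), −Fe+P at 52 h (435 ± 94.7), −Fe−P at 52 h (353 ± 24.9) and −Fe+P at 76 h (344 ± 47.7) to −Fe−P at 76 h (260.0 ± 56.9). In this block the samples of neighbouring groups overlapped, except between the last pair. IMA2 had its highest mean in −Fe+P at 52 h (956 ± 28.9 TPM, SD, n = 3) and its lowest mean without iron in −Fe−P at 76 h (435 ± 36.5), where again only the last pair of neighbours, −Fe+P (681 ± 48.2) and −Fe−P at 76 h, did not overlap. The span of IMA3 was narrower, from 443 ± 56.5 TPM (SD, n = 3) at 39 h to 343 ± 13.6 TPM at 76 h, both in −Fe+P, and its 1 gap lay between −Fe−P at 52 h (383 ± 17.1) and −Fe−P at 76 h (351 ± 9.17). In +Fe+P the order of the means was 39, 52 and 76 h for all 3 genes, with overlap between 39 and 52 h and a gap between 52 and 76 h. The place of 39 h rested on its replicate 3, since the other pair of samples lay below the 52 h mean of each gene.

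Time after transfer was compared within each medium. From 39 to 76 h in +Fe+P the log2 change was −0.89 for IMA1 (adjusted p = 0.0427 in limma), −0.90 for IMA2 (adjusted p = 0.0391) and −0.75 for IMA3 (adjusted p = 0.0513). These changes rested on replicate 3 at 39 h, without which they were −0.33, −0.29 and −0.22 with adjusted p of 0.336, 0.294 and 0.404 in limma. Scaling by the median of ratios also ended the pass of IMA1 (−0.81, adjusted p = 0.0708) and of IMA2 (−0.82, adjusted p = 0.0664). Of all genes, 13.4% passed the adjusted p as lower in this contrast. Without replicate 1 of the same group all 3 genes were called lower, at −1.23, −1.17 and −1.12, and without replicate 2 IMA1 and IMA2 were, at −1.11 and −1.25. In −Fe−P the change from 39 to 76 h was −0.77 for IMA1 (adjusted p = 0.0333 in limma), −0.99 for IMA2 (adjusted p = 0.00767) and −0.25 for IMA3 (adjusted p = 0.427), where 30.7% of all genes passed as lower. The pass of IMA1 was not stable, with an adjusted p of up to 0.149 in limma and a change of −0.58 to −0.88 when 1 library was left out. The change of IMA2 there was at the border of 2-fold, and it reached a call at −1.04 without replicate 1, at −1.03 without replicate 2 of −Fe−P at 39 h and at −1.04 without replicate 3 of −Fe−P at 76 h. In −Fe+P the changes were −0.39, −0.34 and −0.36, and none passed the test, with 16.1% of all genes passing as lower. Over the shorter steps from 39 to 52 h and from 52 to 76 h no IMA gene passed, where 11.4% and 0.0212% of all genes passed in either direction with complete medium, 16.9% and 11.3% without iron and 35.3% and 23.7% under the double deficiency. The lowest adjusted p among these was that of IMA2 in −Fe−P from 52 to 76 h (log2 change −0.80, adjusted p = 0.0563 in limma), which passed with the median of ratios (−0.83, adjusted p = 0.0453). Without replicate 3 of +Fe+P at 39 h the changes from 39 to 52 h in +Fe+P turned from −0.21 to 0.35 for IMA1 (adjusted p = 0.358 in limma) and from −0.04 to 0.57 for IMA2 (adjusted p = 0.0548), and that of IMA3 went from 0.09 to 0.62 and passed (adjusted p = 0.0305).

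**Figure D4:**
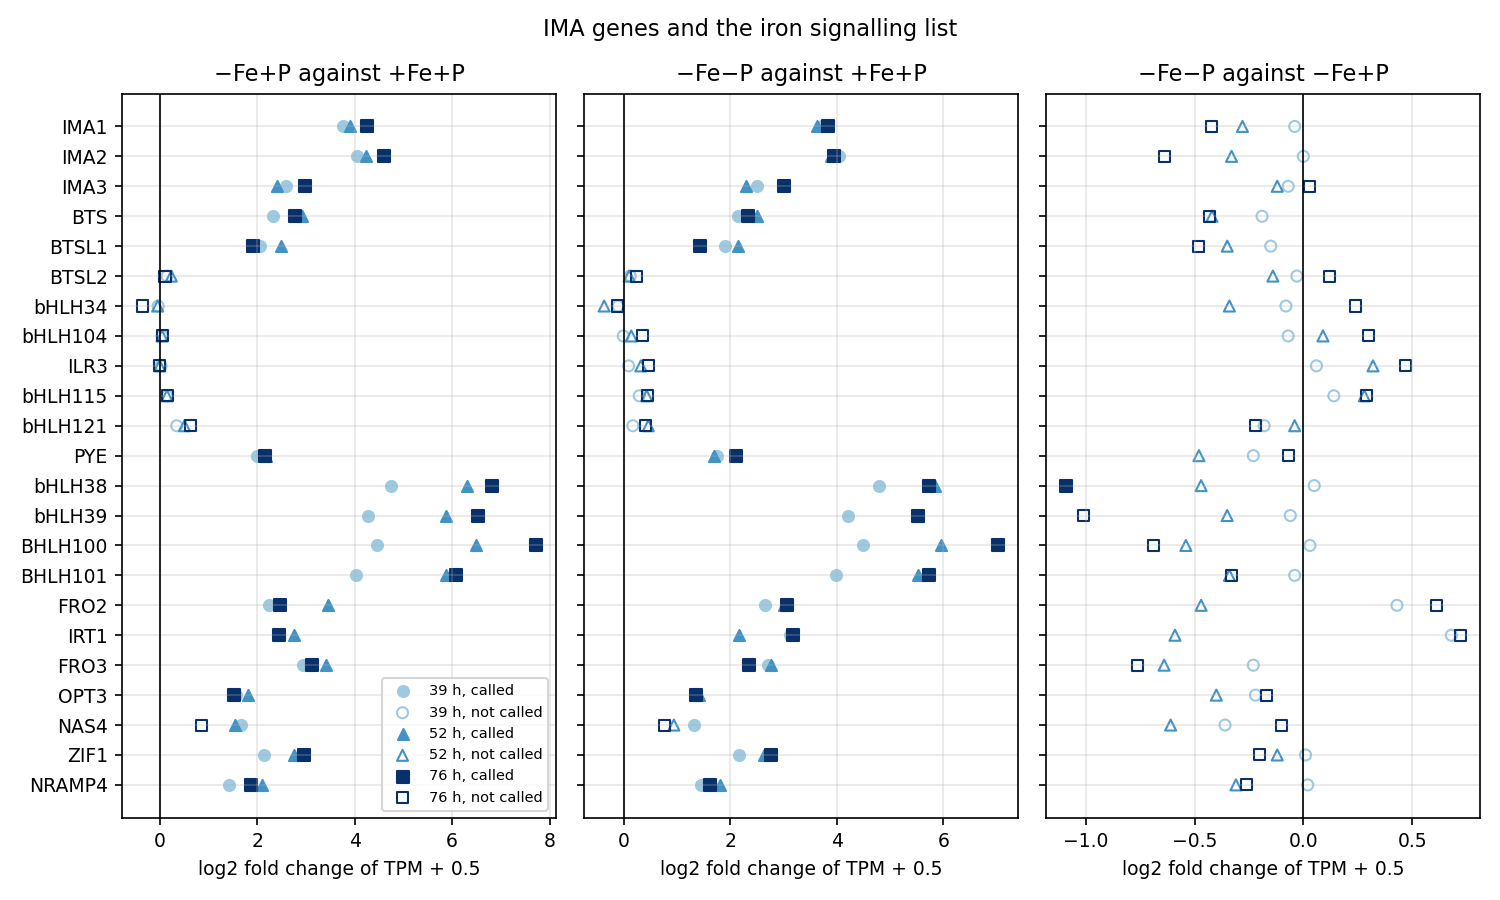
Fitted log2 fold changes of TPM + 0.5 for the 3 IMA genes and the 20 tested genes of the iron signalling list in the 3 comparisons of media. Filled symbols were called at an adjusted p under 0.05 and at least 2-fold, open symbols were not, and the axes of the 3 panels differ. IVc genes stay near 0 while BTS, PYE and Ib genes lie at 1.69 to 7.72 in the first and second panels.

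None of the 27 tests of a change in response with time passed. The shares of all genes that passed, from 39 to 52, from 52 to 76 and from 39 to 76 h, were 0.243%, 0.222% and 7.56% for the response to −Fe+P, 4.19%, 5.49% and 28.7% for that to −Fe−P, and 2.22%, 11.3% and 26.9% for the difference between them. From 39 to 76 h the response to −Fe+P changed by 0.49 for IMA1, 0.56 for IMA2 and 0.39 for IMA3 on the log2 scale, with 95% confidence intervals of −0.39 to 1.38, −0.32 to 1.44 and −0.39 to 1.17. Without replicate 3 of +Fe+P at 39 h all 3 turned, to −0.06, −0.05 and −0.14. The responses to −Fe−P changed by 0.12, −0.08 and 0.49 over the same step, and without that library by −0.44 for IMA1, −0.70 for IMA2, which then passed (adjusted p = 0.0317 in limma), and −0.03 for IMA3. Without replicate 2 of the same group the change of IMA2 was 0.27, so the directions of these changes rested on single libraries.

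The 3 genes also deviated together within groups. In 6 of the 9 groups the same replicate was highest for IMA1, IMA2 and IMA3, and it was replicate 3 in each of the 6. In 5 of the 9 groups the same replicate was lowest for all of them. Each group had 3 samples, how often replicate 3 was highest over all genes was not counted, and no cause was tested.

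The annotation places other transcripts on or near the genes. Downstream of IMA1 by 3193 bases on the same strand lies AT1G47405, which RefSeq lists as a pseudogene. It was at 0.126 ± 0.123 TPM in +Fe+P at 39 h and 4.84 ± 0.263 in −Fe+P (SD, n = 3), and at 52 h it stood at 0.122 ± 0.04 and 9.97 ± 0.694. It was called higher in all 6 comparisons with +Fe+P, with log2 fold changes of 2.13 to 4.07, and called lower in −Fe−P than in −Fe+P at 52 h, by −1.37. The reads behind its +Fe+P values were 1 to 9 per sample. AT1G47410, the next gene after it, was not called in any comparison of media (5.8 to 7.56 TPM in group means), and AT1G47389 and AT1G47390, on the other side of IMA2, were at 0 or near it in all groups.

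IMA3 is overlapped on the opposite strand at both ends. AT2G30760 covers 68 of its 144 coding bases and rose from 0.271 ± 0.297 TPM in +Fe+P at 39 h to 2.40 ± 0.128 in −Fe+P (SD, n = 3), with at most 31 reads in any sample. It was called higher in 5 of the 6 comparisons with +Fe+P, where the remaining one, −Fe−P at 39 h, had a log2 fold change of 0.99. CYP71A13, an enzyme of camalexin synthesis, has a 330-base exon inside the last exon of IMA3. At 39 h it had 5.91 ± 3.19 TPM with iron, 20.6 ± 3.86 without it and 28.9 ± 3.51 under the double deficiency (SD, n = 3), and it was called higher in all 6 comparisons with +Fe+P, with log2 fold changes of 1.73 to 2.81. Whether reads were counted by strand is not given in the sources used here. If they were not, reads of IMA3 and of its antisense neighbours could not be told apart where the counted gene models overlap. The counted models may differ from those of RefSeq, since the TPM values imply a length of 600 bases for IMA3. Of the genes beyond them, CYP71A12 had group means of 0.206 to 1.67 TPM and was not tested, and AT2G30780, at 6.6 to 11.3 TPM, passed the adjusted p as higher in −Fe+P at 52 h (0.41) and 76 h (0.66), and at the same times as lower in −Fe−P set against −Fe+P (−0.44 and −0.71), without reaching 2-fold.

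**Figure D5:**
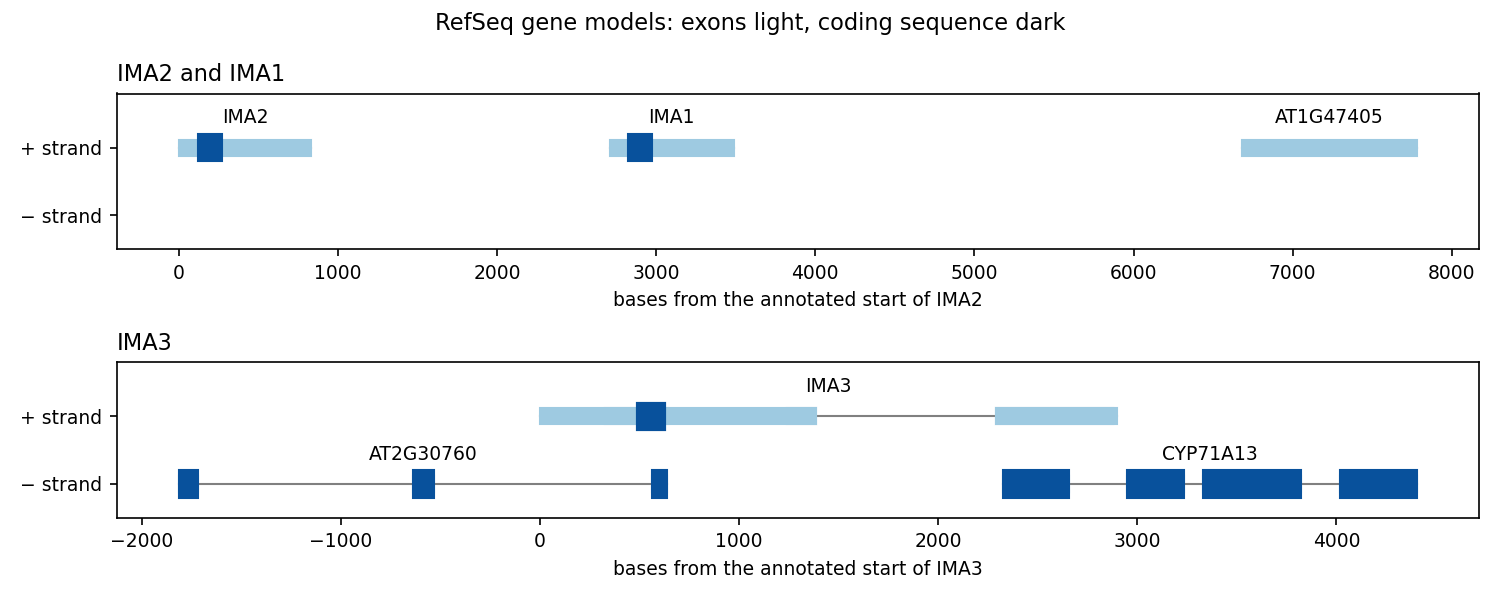
RefSeq gene models around the IMA genes, in bases from the annotated start of IMA2 (top) and IMA3 (bottom), with exons light, coding sequence dark and strands on separate rows. IMA2 and IMA1 stand apart by 1876 bases on 1 strand, while AT2G30760 and CYP71A13 overlap IMA3 on the other strand, each with an exon inside it.

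The lengths that the authors' TPM values imply were 470 bases for IMA1, 375 for IMA2 and 600 for IMA3, shorter than the RefSeq exons in use here. A different length would rescale the level of a gene, and with it the shares and the order of the 3 genes, in all samples alike. Fold changes between media would stay almost as they are.

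The known partners of the IMA peptides were described from a list of 22 iron signalling genes, of which 20 passed the filter and FIT and bHLH11 did not. In −Fe+P against +Fe+P 14 of the 20 were called higher at 39 h, 14 at 52 h and 13 at 76 h, where 0.555%, 2.78% and 4.42% of all genes were, and none lower, with median log2 fold changes of 2.02, 2.33 and 2.05, against 0.05, 0.16 and 0.11 over all genes. In −Fe−P 14, 13 and 13 were called higher, where 1.45%, 4.45% and 6.34% of all genes were, and none lower, with medians of 1.82, 1.97 and 1.86, against 0.04, 0.11 and 0.10. Between −Fe−P and −Fe+P 1 of the 20 was called in 1 comparison, bHLH38 at 76 h (−1.09). Of all genes, 0.820%, 2.21% and 8.86% were called in either direction at the 3 times in turn. Other members of the list passed the adjusted p under 2-fold at 52 and 76 h, and the share of all genes that did is not given here. The list medians were −0.05, −0.35 and −0.18, below the −0.00, −0.03 and −0.03 over all genes. Most members that were called are themselves known to be induced by iron lack, for which the list was chosen.

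BTS, the ubiquitin ligase that binds IMA peptides, rose from 61.6 ± 27.4 TPM in +Fe+P at 39 h to 294 ± 17.7 in −Fe+P and 269 ± 87.8 in −Fe−P (SD, n = 3). At 76 h it was at 36.7 ± 3.86, 253 ± 15.3 and 188 ± 17.2 TPM. Iron lack alone gave BTS log2 fold changes of 2.33, 2.93 and 2.77. Its relative BTSL1 was called higher throughout at levels of at most 4.46 TPM in group means, and BTSL2 was not called in any comparison.

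The 4 group IVc genes, from which come the targets of BTS, were not called in any comparison of media. At 39 h ILR3 stood at 78.3 ± 3.57 TPM with iron, at 80.0 ± 6.39 without it and at 83.2 ± 2.98 under the double deficiency (SD, n = 3), and at 76 h at 79.3 ± 2.51, 79.6 ± 2.77 and 110.4 ± 3.57 TPM. The log2 fold changes of bHLH34, bHLH104, ILR3 and bHLH115 lay between −0.36 and 0.16 in −Fe+P and between −0.37 and 0.47 in −Fe−P. Some passed the adjusted p under 2-fold. bHLH34 was lower in −Fe+P at 76 h (−0.36) and in −Fe−P at 52 h (−0.37). In −Fe−P bHLH115 was higher at all 3 times (0.29, 0.43 and 0.44), ILR3 at 52 h (0.32) and 76 h (0.47) and bHLH104 at 76 h (0.36). The transcript level of bHLH121 rose by 0.35, 0.51 and 0.64 in −Fe+P, past the adjusted p and under 2-fold.

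The 4 group Ib genes, which act below the IVc factors, changed most. BHLH100 went from 51.3 ± 52.9 TPM in +Fe+P at 39 h to 806 ± 112 in −Fe+P, and from 2.13 ± 1.08 to 519 ± 20.9 TPM at 76 h (SD, n = 3). Over bHLH38, bHLH39, BHLH100 and BHLH101 the log2 fold changes were 4.03 to 4.75 at 39 h, 5.87 to 6.49 at 52 h and 6.08 to 7.72 at 76 h in −Fe+P. Their means at 76 h were lower in −Fe−P than in −Fe+P, as for IMA1 and IMA2. They were 118 against 251 TPM for bHLH38, 101 against 204 for bHLH39, 324 against 519 for BHLH100 and 87.7 against 111 for BHLH101. PYE, a repressor of iron transport genes, rose from 15.4 ± 6.02 to 60.1 ± 5.87 TPM at 39 h, with log2 fold changes of 1.99, 2.18 and 2.17. OPT3, which loads iron into the phloem, rose from 130 ± 41.5 to 375 ± 10.4 TPM at 39 h, with log2 fold changes of 1.57, 1.81 and 1.52. FIT, the root regulator of iron uptake, was between 0.678 and 1.55 TPM in all group means.

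The genes with the pattern most like that of each IMA gene were found by Pearson's r of group means of log2(TPM + 0.5) over the 9 groups, among the 18910 genes. All 9 points share the contrast between media with and without iron, so high values are common to every gene with a strong response. For IMA1 they were IMA2 (r = 0.9986), IMA3 (r = 0.9953) and ZIF1 (r = 0.9947), a vacuolar transporter. For IMA2 they were IMA1 (r = 0.9986), BTS (r = 0.9955) and ZIF1 (r = 0.9941), and IMA3 stood 5th. For IMA3 the first was AT5G05250 (r = 0.9969), followed by IMA1 (r = 0.9953) and IMA2 (r = 0.9933). AT5G05250 rose from 49.7 ± 25.9 TPM in +Fe+P at 39 h to 289 ± 8.69 in −Fe+P and 293 ± 10.3 in −Fe−P (SD, n = 3), with log2 fold changes of 2.40 to 2.78 in the 6 comparisons with +Fe+P and differences of at most 0.09 between −Fe−P and −Fe+P.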

How the data were processed

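PolyA RNA from 27 shoot samples was sequenced. The authors deposited TPM values per gene and sample, and the labels name HISAT2, TAIR10 and DESeq2. Versions, whether reads were counted by strand, gene lengths and the treatment of multiply matching reads are not given in the sources used here. The TPM values were whole multiples of a step per sample and gene length (29156 genes, tolerance 0.02 reads), which gave depth. Samples were grouped by their labels, and replicates differed by more than sampling noise in all 27 pairs (chi-square per gene at least 8.58).

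Log2(TPM + 0.5) of the 18910 genes averaging 1 TPM or more was fitted in limma 3.58.1 (R 4.3.3) with 1 mean per group and a trend in the moderated variance, and p-values were adjusted by Benjamini-Hochberg within each of 27 contrasts. Differences and ratios over the 3 times were tested by exact permutation within times. On simulated data for −Fe+P against +Fe+P at 76 h, 94 of 100 genes changed 2-fold passed the adjusted p, 50 of them also reaching 2-fold, and 96 of 100 changed 3-fold were called. Sequences came from RefSeq TAIR10.1, and 32835 of the 33602 loci of the table matched it. Python 3.11.15, numpy 2.4.6, pandas 2.3.3 and scipy 1.17.1 were used.

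The genes, lists and tests were chosen with earlier results of these data known. Genes named were the 3 IMA genes, listed iron signalling genes by role, the nearest genes on the chromosome and the 3 genes most correlated with each IMA gene. Genes named for replicate 3 of +Fe+P at 39 h were chosen after their values were seen. Alternatives were pseudocounts of 0.1 and 1, a minimum of 5 TPM or none, other variance settings, the median of ratios, IMA1 and IMA2 summed, the 6 samples of a comparison, a replicate block, leaving out each replicate and, added after seeing the data, both unusual 39 h libraries. Protein sequences were not used here.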

Additional observations from a re-analysis of the deposited data

How the results depend on the processing

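All 288 values of the 18 iron comparisons of IMA1, IMA2 and IMA3 under the alternatives were called higher. They lay at 2.14 to 4.74 on the log2 scale, with an adjusted p of at most 0.0165 in limma. The fit of IMA1 and IMA2 summed was counted under both names. Time contrasts, changes of response and −Fe−P against −Fe+P at 39 h changed direction under some alternatives. Scaling by the median of ratios turned IMA2 in +Fe+P from 39 to 52 h to 0.06, and the change of the −Fe−P against −Fe+P difference of IMA3 over the same step to 0.01. The sum of IMA1 and IMA2 changed by 0.08 in −Fe+P from 39 to 52 h, against −0.07 for IMA1 alone and 0.15 for IMA2 alone. Its −Fe−P response changed by −0.00 from 39 to 76 h, against 0.12 for IMA1 alone and −0.08 for IMA2 alone.

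Leaving out replicate 3 of +Fe+P and replicate 1 of −Fe−P at 39 h together, an alternative chosen after seeing the data, gave −Fe−P against −Fe+P at 39 h of 0.05 for IMA1, 0.05 for IMA2 and 0.01 for IMA3, and +Fe+P changes from 39 to 52 h of 0.35 for IMA1 and 0.57 for IMA2 (adjusted p = 0.0432 in limma). The −Fe+P response then changed from 39 to 52 h by −0.42 for IMA1 and −0.43 for IMA2 and from 39 to 76 h by −0.06, −0.05 and −0.14 for IMA1, IMA2 and IMA3, and the −Fe−P response from 39 to 76 h by −0.54, −0.75 (adjusted p = 0.0313 in limma) and −0.12. IMA2 in −Fe−P fell by 1.04 from 39 to 76 h (value −1.04, adjusted p = 4.2e-05), and its −Fe−P against −Fe+P difference changed by −0.70 (adjusted p = 0.0323).

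With each library left out in turn, −Fe−P against −Fe+P at 39 h ran from −0.16 to 0.15 for IMA1, −0.11 to 0.18 for IMA2 and −0.17 to 0.01 for IMA3. From 39 to 52 h in +Fe+P the ranges were −0.55 to 0.35, −0.39 to 0.57 and −0.28 to 0.62, and from 39 to 76 h −1.23 to −0.33, −1.25 to −0.29 and −1.12 to −0.22. In −Fe+P from 39 to 52 h IMA1 ran from −0.19 to 0.12 and IMA3 from −0.18 to 0.00, and in −Fe−P from 39 to 76 h IMA2 ran from −1.04 to −0.88. Changes of the −Fe+P response ran from −0.42 to 0.48, −0.43 to 0.54 and −0.70 to 0.20 for IMA1, IMA2 and IMA3 from 39 to 52 h, and from −0.06 to 0.83, −0.05 to 0.91 and −0.14 to 0.76 from 39 to 76 h. Those of the −Fe−P response ran from −0.65 to 0.24, −0.75 to 0.21 and −0.75 to 0.15, and from −0.44 to 0.46, −0.70 to 0.27 and −0.03 to 0.87, and from 52 to 76 h from −0.09 to 0.22 for IMA2. The change of the −Fe−P against −Fe+P difference ran from −0.26 to 0.05 for IMA1 from 52 to 76 h and from −0.13 to 0.05 for IMA3 from 39 to 52 h. In the exact permutation tests of −Fe−P against −Fe+P the ranges were −0.31 to −0.18 for IMA1, −0.36 to −0.27 for IMA2, −0.29 to −0.12 for IMA1 over IMA3 and −0.31 to −0.24 for IMA2 over IMA3. The cause of these shifts was not tested.

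Over all genes, 8 of 27 correlations between deviations of same-numbered samples were over 0.1 (median 0.051, range −0.415 to 0.365), so the numbers were not taken as pairs, although replicate 3 was often highest for the IMA genes. With a replicate block within each time, IMA2 in −Fe−P against −Fe+P at 76 h stayed at −0.64 with an adjusted p of 0.0211 in limma, still under 2-fold, and no call changed. Contrasts of times were not run with the block, which lies within a time. Recovered reads of the IMA genes were at least 211 in any sample. The intervals rest on 3 samples per group and on a spread shared over all groups, and what set their width was not tested.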
